A study of Macaca mulatta with 449 samples.

Results

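The transcripts of 9 genes that mark classes of inhibitory interneurons were followed through the rhesus macaque brain: *PVALB*, *SST*, *VIP*, *CALB1*, *CALB2*, *NPY*, *CCK*, *RELN* and *LAMP5*. They were picked by symbol as known markers, with earlier results of these data known, and each symbol matched 1 of the 30807 genes of the count table. Bulk total RNA depleted of ribosomal RNA had been sequenced, and the libraries of 51 sub-regions of the brain of each of 8 healthy animals, 408 in all, entered the fits. The animals were 4 males and 4 females that received no treatment, and each sex held 2 young animals (3.2 to 5.0 years old) and 2 mid-aged animals (9.8 to 10.0 years old). Of the sub-regions, 31 were cortical and fell into frontal, parietal, occipital, temporal and limbic lobes. The other 20 sub-regions fell into 15 further region groups.

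Library totals ran from 7784678 to 31083490 counts, with a median of 10698602. Levels are given as CPM, counts scaled to the total of the reads assigned to genes after that total was multiplied by a normalisation factor (TMM). Where several sub-regions made up a region group or a lobe, their counts were summed within each animal, so that each of the 8 animals gave 1 value per group. Errors of levels are SDs over these 8 animals. Those of log2FC are approximate standard errors (SE), the absolute log2FC divided by the square root of the F statistic of its test. CPM is not scaled to transcript length, so levels of different genes are not compared. The tissue labels were checked against the summed CPM of marker lists. The oligodendrocytes list, with myelin basic protein (*MBP*) as its defining gene, summed to 102785 CPM in the corpus callosum (CC) and 3071 CPM in the cortex. *GABRA6*, which defines cerebellar granule cells, and *PRL*, a pituitary hormone, were likewise highest in the cerebellum (CB) and the pituitary (PIT). The hypothalamus (HTHA) library of Rhesus 6 stood apart, with 3778 CPM summed over the glutamatergic neurons list against 358 to 739 CPM in the other 7 animals, so HTHA values are given with and without it. The globus pallidus (GP) library of Rhesus 3 held 513 CPM of the striatal medium spiny neurons list against 201 to 241 CPM in the other animals.

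Cortical interneurons release GABA and restrain the excitatory pyramidal cells around them. Parvalbumin cells are mostly fast-spiking basket and chandelier cells that contact the soma and axon initial segment, somatostatin cells reach distal dendrites, and vasoactive intestinal peptide cells often inhibit other interneurons. The parvalbumin and somatostatin classes arise in the medial ganglionic eminence of the embryo, whereas cells with VIP, calretinin, LAMP5 or reelin without somatostatin arise largely in the caudal ganglionic eminence. None of the 9 genes is read only in interneurons, as calbindin fills cerebellar Purkinje cells, reelin is made by cerebellar granule cells and *CCK* by many pyramidal cells. In bulk tissue fewer cells of a type and less RNA per cell cannot be told apart.

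Each of the 15 other region groups was compared with the cortex in a fit that kept the animal as a block, and a gene was called at FDR < 0.05 and a fold above 2 (edgeR's quasi-likelihood test, Benjamini-Hochberg adjusted). Over the comparisons of the 9 genes with these groups, 30 were called higher than the cortex and 72 lower, and 33 were not called. These are 22.2% and 53.3% of the comparisons, while over all genes tested 12.3% were called higher and 12.2% lower. The median log2FC of the 9 genes was -1.44, and the medians of all genes per contrast lay between -0.03 and 0.03. The pituitary had all 9 genes lower, beside 23.3% of all genes. By contrast, the amygdala (AMY), the hippocampus (HIP) and the entorhinal and perirhinal cortex (PA) had 5, 5 and 6 genes that were not called. Over all genes, 5.12% were called higher and 4.59% lower in AMY, 6.06% and 6.33% in HIP, and 5.67% and 3.48% in PA. The 9 genes were thus called more often than all genes there too. *VIP* was lower in all 15 groups and *CCK* in 12, whereas *RELN* was higher in 11.

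**Figure D1:**
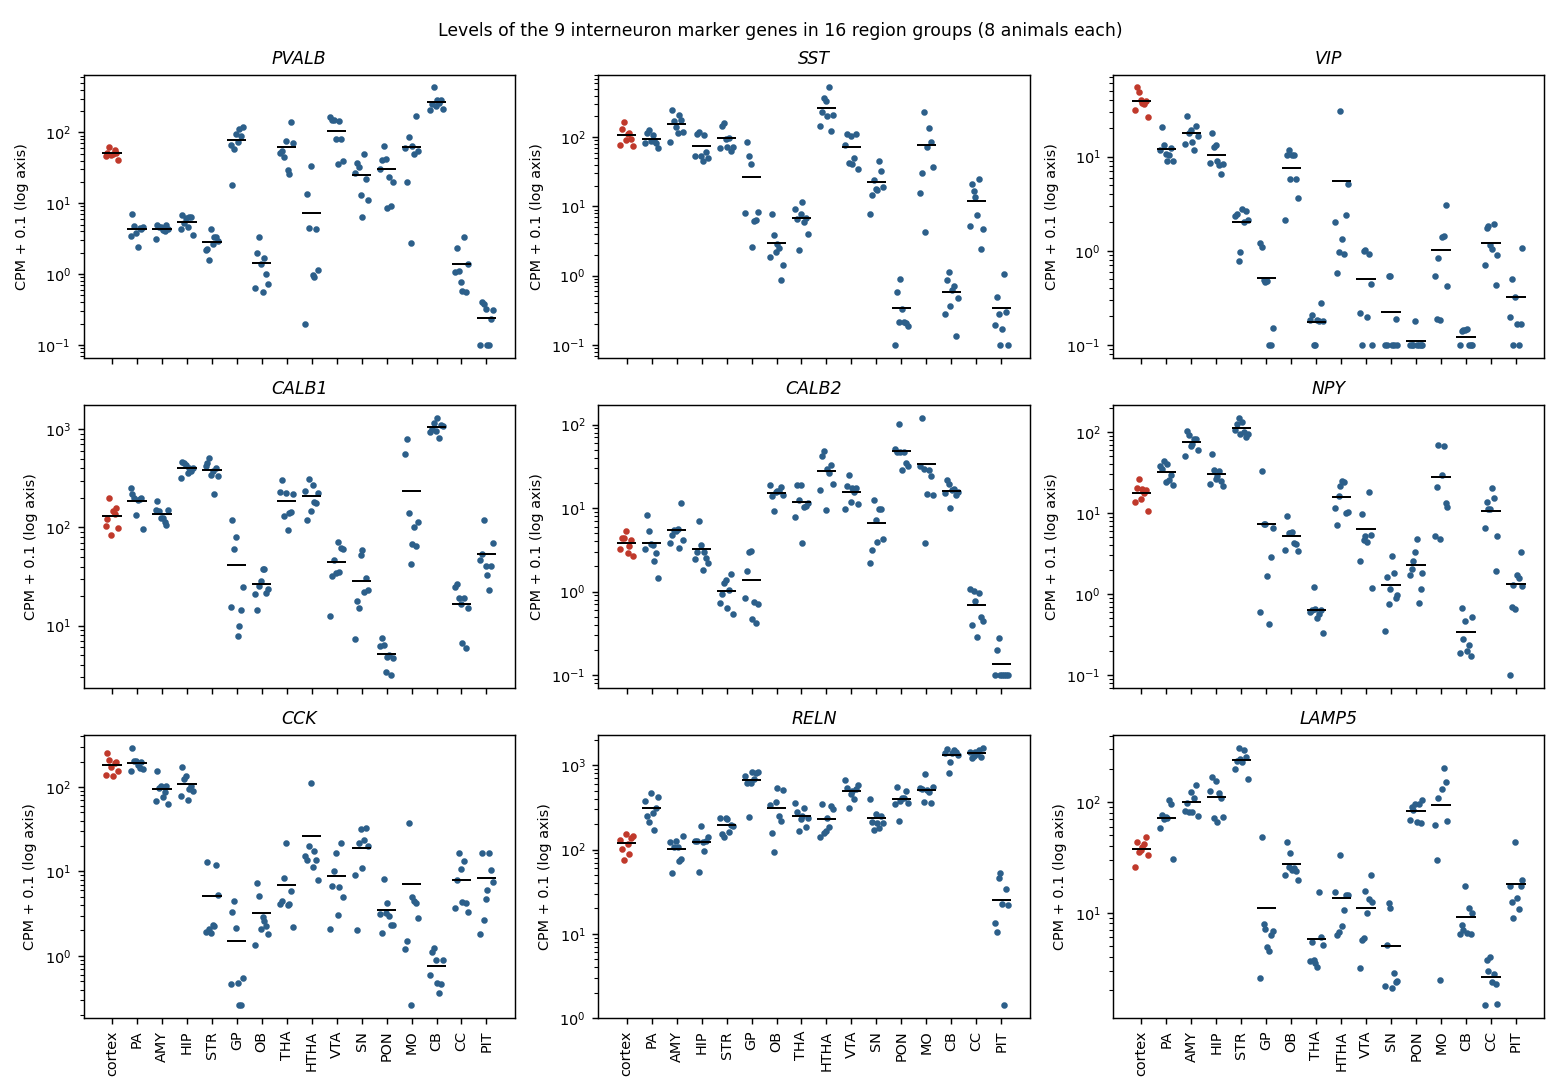
CPM + 0.1 on a log axis for each of the 9 genes in 16 region groups. Points are the 8 animals, short lines the means, and the cortex is in red. *PVALB* and *CALB1* were highest in CB, *NPY* and *LAMP5* in the striatum (STR), *RELN* in CC and CB, and *VIP* in the cortex.

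Among the calcium-binding proteins, *PVALB* encodes the calcium buffer parvalbumin. Its lowest, median and highest values were 40.9, 49.99 and 61.7 CPM in the cortex and 210.2, 258 and 432 CPM in CB. The groups did not overlap, and CB was the only region group in which *PVALB* was called higher (273 ± 70.8 CPM against 50.7 ± 6.24 CPM; log2FC = 2.42 ± 0.39, FDR = 4.05e-08 in edgeR's test). The ventral tegmental area (VTA) held 105 ± 52.4 CPM, with animals from 36.2 to 165 CPM, on both sides of the cortical range. Its log2FC of 0.99 lay just under the fold limit (FDR = 0.0182, edgeR), and passed it under 5 alternative settings (1.00 to 1.15). *PVALB* was lower in 9 groups. HIP, AMY, PA and STR held 5.35, 4.26, 4.23 and 2.75 CPM, with log2FC from -3.28 to -4.21, and none of their animals reached the lowest cortical value. In PIT, 0 to 3 reads were counted per animal, and no fold is given. In HTHA the mean of 7.30 ± 11.4 CPM rested on Rhesus 6, at 33.3 CPM, and the log2FC moved from -3.01 to -4.04 without that library, still called. In the substantia nigra (SN; 24.6 ± 14.6 CPM, log2FC = -1.12) the call was lost without Rhesus 7 (log2FC = -0.94).

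*CALB1* encodes calbindin, another calcium buffer, which fills Purkinje cells, dentate granule cells and medium spiny neurons. CB again had the highest level, with 821, 1042 and 1315 CPM as the lowest, median and highest animal against 83.7, 129 and 198 CPM in the cortex (log2FC = 2.99 ± 0.37, FDR = 3.63e-12, edgeR). HIP (400.3 ± 48.1 CPM, log2FC = 1.60) and STR (383 ± 86.8 CPM, log2FC = 1.52) were also higher, and in all 3 groups every animal exceeded the highest cortical value. It was lower in 7 groups, down to 5.01 ± 1.48 CPM in the pons (PON; log2FC = -4.76). *CALB1* in the medulla (MO) was not called, with 42.5, 107 and 793 CPM as the lowest, median and highest animal.

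*CALB2*, which encodes calretinin, was a low-level transcript in the cortex (3.72 ± 0.900 CPM, 2.59 to 5.27 CPM over animals) and was higher in 7 groups. In PON its lowest, median and highest values were 28.5, 46.96 and 100.3 CPM, all above the cortex (log2FC = 3.65 ± 0.30, FDR = 6.24e-21, edgeR). HTHA held 27.9 ± 12.9 CPM (log2FC = 2.86, and 2.97 without Rhesus 6), CB 16.02 ± 3.38 CPM, VTA 15.6 ± 4.81 CPM and the olfactory bulb (OB) 15.1 ± 2.92 CPM, and in these 4 groups too no animal fell within the cortical range. MO (33.3 ± 36.6 CPM) was called with 1 animal far above the others and its lowest at 3.75 CPM, inside the cortical range. *CALB2* was lower in GP, STR, CC and PIT. STR was at 0.914 ± 0.383 CPM, where no animal reached the cortical range (log2FC = -2.05), and PIT libraries held 0 to 2 reads.

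Of the peptides, *SST* (somatostatin, also the hypothalamic inhibitor of growth hormone release) was higher than the cortex in HTHA alone of the 15 groups. Its lowest, median and highest values were 123, 223 and 524 CPM there and 75.2, 103 and 163 CPM in the cortex, so the groups overlapped (log2FC = 1.28 ± 0.34, FDR = 7.12e-04, edgeR; log2FC = 1.18 without Rhesus 6). AMY (157 ± 53.2 CPM) and STR (97.1 ± 37.005 CPM) were not called. Levels were lower in 8 groups, among them the thalamus (THA; 6.62 ± 2.85 CPM, log2FC = -3.89), OB (2.83 ± 2.20 CPM, -5.37) and CB (0.476 ± 0.330 CPM, -7.90). PON and PIT held 0 to 10 and 0 to 13 reads per animal, and their fold changes moved by up to 1.84 times when 1 animal was left out (Rhesus 6 in PON and Rhesus 8 in PIT).

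*VIP* was the most cortical of the 9 genes in that its cortical mean exceeded that of every other group and all 15 differences were called, although that in AMY was lost with DESeq2. The lowest, median and highest animals had 26.3, 38.02 and 54.3 CPM in the cortex and 11.7, 17.2 and 26.95 CPM in AMY, the next group, where only 1 animal reached the cortical range (log2FC = -1.15 ± 0.35, FDR = 0.00311, edgeR). PA (12.002 ± 3.66 CPM), HIP (10.4 ± 3.71 CPM) and OB (7.46 ± 3.68 CPM) followed. Below them, STR held 1.91 ± 0.743 CPM and CC 1.12 ± 0.558 CPM. HTHA was at 5.40 ± 10.3 CPM with Rhesus 6 and at 1.81 ± 1.57 CPM without it (log2FC = -3.14 and -4.40). In CB and PON at most 1 read was counted per animal, and in THA at most 2, so no fold is given there. Counts also stayed low in GP (0 to 9 reads), VTA (0 to 10), SN (0 to 5) and PIT (0 to 9), and in SN and PIT the fold change moved by over 1.5 times without Rhesus 6 and Rhesus 11, respectively. In MO the log2FC moved from -5.38 to -6.00 without Rhesus 10.

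*NPY*, a peptide of long-range and local somatostatin cells and of striatal interneurons, was higher than the cortex in STR and AMY. The lowest, median and highest values were 87.3, 102 and 150.3 CPM in STR, 50.7, 76.2 and 103 CPM in AMY and 10.6, 18.4 and 26.3 CPM in the cortex, with no overlap of either group with the cortex (log2FC = 2.67 and 2.10, FDR = 2.40e-11 and 3.86e-08, edgeR). PA (32.3 ± 8.14 CPM, log2FC = 0.91) stayed under the fold limit. Of the 8 groups with lower *NPY*, THA (0.540 ± 0.253 CPM, 3 to 11 reads) and CB (0.240 ± 0.188 CPM, 2 to 15 reads) were at the bottom. In GP, where Rhesus 3 held 32.5 CPM and the other animals 0.321 to 7.25 CPM, the log2FC moved from -1.44 to -2.14 without that animal. *CCK*, cholecystokinin, was highest in cortical and limbic structures. PA (195 ± 43.2 CPM) was level with the cortex (182 ± 39.8 CPM) within the spread of animals, and HIP (109 ± 34.4 CPM, log2FC = -0.78) and AMY (94.1 ± 29.6 CPM, -0.98) were not called, although AMY passed the fold limit without Rhesus 3, without Rhesus 7 and with no filter on low counts. The other 12 groups were lower. CB held 0.653 ± 0.323 CPM (log2FC = -8.20, edgeR) and GP 1.40 ± 1.64 CPM (-7.29), with every animal far below the cortical range of 136 to 254 CPM. HTHA went from 26.4 ± 35.1 CPM to 14.03 ± 3.86 CPM when Rhesus 6 was left out (log2FC = -3.01 and -3.68), and in MO the log2FC moved from -4.96 to -6.02 without Rhesus 4.

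*RELN* encodes reelin, a secreted protein that guides migrating neurons and is kept in adult interneurons and cerebellar granule cells. CC and CB had the highest levels, 1211, 1411 and 1613 CPM and 809, 1403 and 1576 CPM as the lowest, median and highest animal, against 75.2, 122 and 153 CPM in the cortex. Neither group overlapped with the cortex (log2FC = 3.60 and 3.52, FDR = 1.34e-24 and 4.70e-24, edgeR). GP (676 ± 196 CPM), MO (515 ± 131 CPM), VTA (497 ± 109 CPM) and PON (396 ± 99.3 CPM) followed, and also stood clear of the cortex in every animal. The oligodendrocytes list was also high in most of these groups. All 5 of its measured genes were higher than the cortex in CC, GP, MO, VTA and PON, with summed levels of 39351 to 102785 CPM. They were also higher in STR, where *RELN* was not called, but none was called in CB (4161 CPM, cortex 3071 CPM). Over all genes, the share called higher ran from 11.6% in PON to 20.2% in CC among the former 5 groups. It was 8.74% in STR and 10.8% in CB. Pearson's r of the mean log2(CPM + 1) of *RELN* and *MBP* was 0.63 over the 51 sub-regions but -0.29 over the 31 cortical ones. The part of the oligodendrocytes list in the *RELN* levels was not tested. The calls in SN, HTHA and THA (log2FC = 1.01, 1.01 and 1.13) lay near the fold limit and were lost in 2, 4 and 1 of the 8 fits that each left out 1 animal, and that in HTHA held without Rhesus 6 (1.06). *RELN* was lower in PIT only (25.2 ± 17.7 CPM, log2FC = -2.18).

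*LAMP5*, a membrane protein of neurogliaform cells in the upper cortical layers, was higher than the cortex in STR, HIP, AMY, MO and PON. Its lowest, median and highest values were 161, 242 and 310.4 CPM in STR and 25.9, 37.99 and 48.3 CPM in the cortex, without overlap (log2FC = 2.68 ± 0.35, FDR = 5.37e-11, edgeR). HIP (111 ± 38.7 CPM, log2FC = 1.52), AMY (99.3 ± 24.2 CPM, 1.37) and PON (83.8 ± 15.5 CPM, 1.15) also lay above every cortical value, whereas MO ranged from 2.36 to 203 CPM. The 8 groups with lower *LAMP5* ended with CC (2.52 ± 0.919 CPM, log2FC = -3.96). GP held 11.02 ± 15.3 CPM, where leaving out Rhesus 3 moved the log2FC from -1.90 to -2.71, and HTHA 13.4 ± 8.66 CPM (-1.53, and -1.78 without Rhesus 6).

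When the 16 region groups were placed in order of the mean level of each gene, no pair of neighbours in the order passed the test. An exact 2-sided sign-flip permutation test on log2(CPM + 1) over the 8 animals reached its smallest possible p of 0.00781 for 20 pairs of neighbours, all with the same direction in 8 of 8 animals, and after Benjamini-Hochberg adjustment over all pairs of neighbours of the 9 genes this was 0.0527. Among the 20 were the steps from CB to VTA for *PVALB*, from the cortex to AMY for *VIP*, from CB to HIP for *CALB1*, and from AMY to PA for *NPY*. Because 8 animals allow no smaller p, and neighbours are the groups closest in mean, a pair that did not pass is not shown to be level. The peptides' receptors and the other GABA genes gave the setting for these levels. Over the same 15 contrasts, the 9 measured receptors of the members' peptides had 8 higher and 89 lower calls and 38 comparisons without a call, with a median log2FC of -2.02. *NPY2R* in HIP (log2FC = 3.12) and *VIPR2* in OB (2.80) were the largest rises. The 6 genes of GABA synthesis and transport had 11 higher and 22 lower calls of 90, led by the transporter *SLC6A11* in SN (2.70) and, downwards, by the vesicular transporter *SLC32A1* in PIT (-5.90). The list reelin receptors and adaptor had 4 higher and 10 lower of 45, led by the adaptor *DAB1* in HIP (1.48) and PIT (-4.65). Over all genes, 12.3% of these comparisons were called higher and 12.2% lower. The higher calls of the GABA and reelin lists were no more frequent than that.

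Within the cortex, counts were summed per lobe and each lobe was compared with the mean of the other 4, with the animal as a block and a call at FDR < 0.05. Of the 45 comparisons of the 9 genes, 22 were higher and 13 lower (48.9% and 28.9%), beside 16.2% and 14.8% over all genes. Of these 35 calls, 21 remained without the block, and the 14 lost were all outside the occipital lobe. The frontal lobe had 5 genes higher and 1 lower, the limbic 6 and 1, the parietal 3 and 2, and the temporal 7 and 2. Over all genes, 22% were called higher and 19.7% lower in the frontal lobe, and 9.88% and 9.31% in the limbic. The parietal shares were 6.96% and 7.43%, and the temporal 14.2% and 12.8%. Lower calls in the frontal lobe were thus no more frequent than over all genes. The frontal call of *SST* and the temporal call of *VIP* were the least stable, being kept in 2 and 3 of the 8 fits that left out 1 animal. The occipital lobe, made of the anterior superior, posterior superior and inferior occipital gyri (aSOG, pSOG and IOG), stood apart: *PVALB* was higher, 7 of the other genes were lower, and *CCK* was not called. Over all genes, the occipital contrast called 28% higher and 24.8% lower, and all 8 occipital calls held without the block, in each fit without 1 animal and in every other alternative run. The study placed *PVALB* in an occipital gene module built from these same libraries, so its occipital level is not independent evidence.

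**Figure D2:**
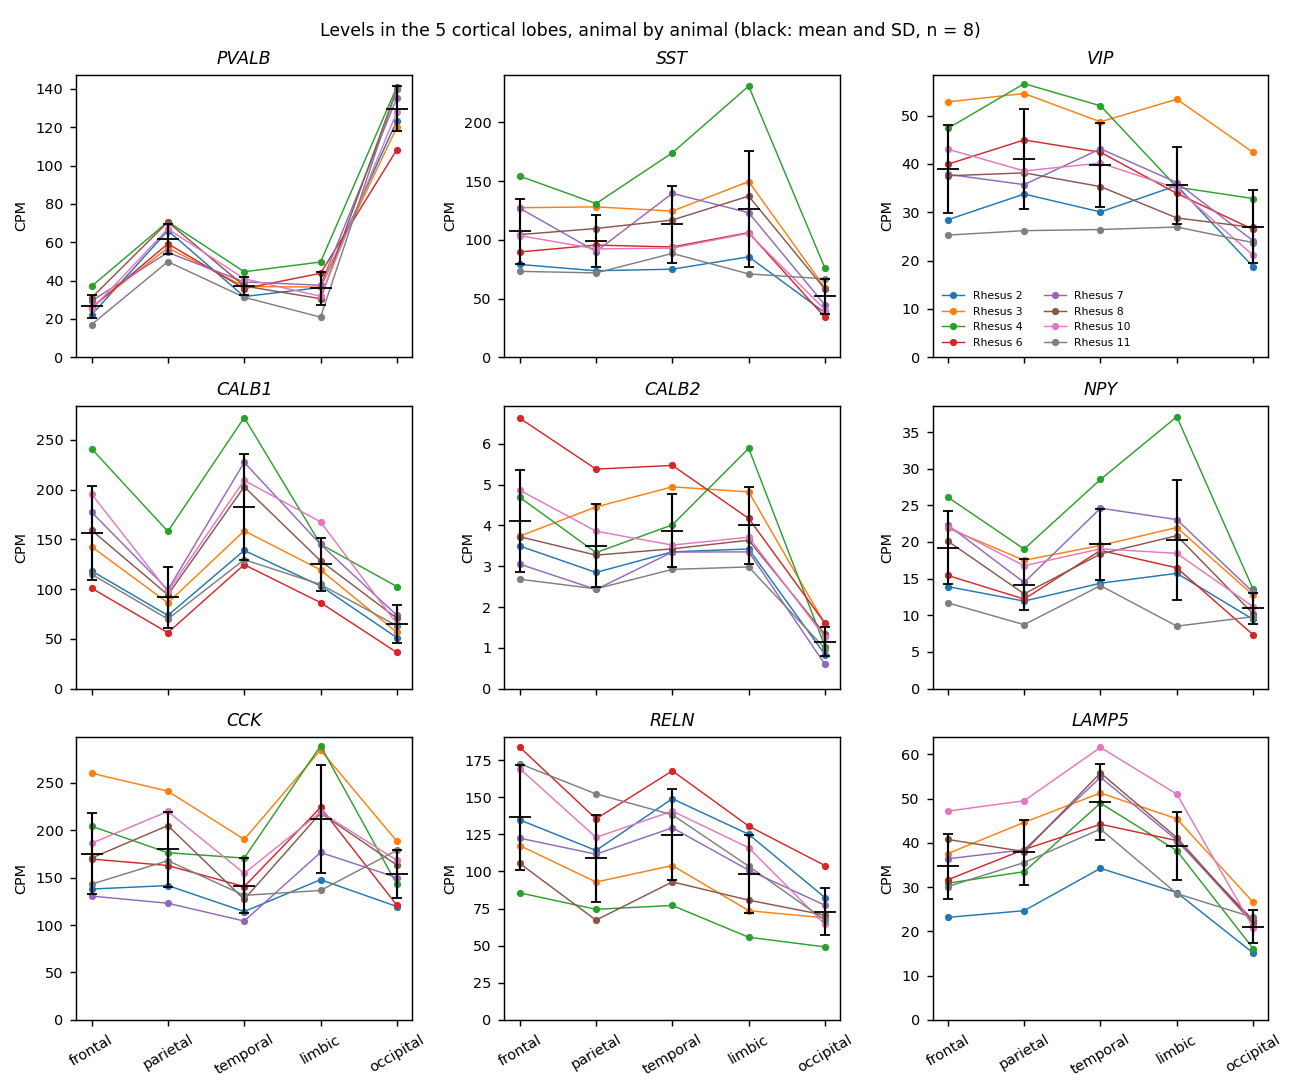
CPM of the 9 genes in the 5 cortical lobes. Coloured lines join the lobes of each of the 8 animals, and black dashes with bars are the mean ± SD. The occipital *PVALB* values, from 108 to 141 CPM, lie above all values in the other lobes, and the occipital *CALB2* values lie below all others.

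*PVALB* was lowest in the frontal and highest in the occipital lobe. Its lowest, median and highest values were 17.1, 25.9 and 37.03 CPM in the frontal lobe, 49.9, 62.7 and 70.7 CPM in the parietal lobe and 108, 132 and 141 CPM in the occipital lobe. The limbic (35.9 ± 8.67 CPM) and temporal (37.2 ± 4.49 CPM) lobes lay between the frontal and the parietal. The occipital lobe was highest in 8 of 8 animals, and its lowest animal exceeded the highest value in any other lobe, 70.7 CPM (log2FC = 1.77 ± 0.07, FDR = 6.45e-21, edgeR). The frontal lobe, lowest on average, had a log2FC of -1.12 ± 0.08, the parietal 0.42, the temporal -0.50 and the limbic -0.58, all called.

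*CALB2* was the gene with the deepest occipital decrease. Its lowest, median and highest occipital values were 0.590, 1.14 and 1.60 CPM, all below the lowest value in any other lobe, 2.43 CPM (log2FC = -1.75 ± 0.11, FDR = 1.64e-15, edgeR). For *CALB1* the occipital values were 36.2, 64.1 and 102 CPM and the temporal ones 125, 181 and 272 CPM, which did not overlap (occipital log2FC = -1.06 ± 0.06, FDR = 9.57e-17, edgeR). The temporal lobe was the highest for this gene (log2FC = 0.81), followed by the frontal (0.52) and limbic lobes (0.16), and the parietal was lower (-0.44). Among the calcium-binding proteins, *PVALB* was highest in the occipital lobe and both others lowest there, in 8 of 8 animals each.

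Of the peptides, *SST*, *NPY* and *VIP* were lower in the occipital lobe. *SST* had 33.96, 51.1 and 75.6 CPM as its lowest, median and highest occipital animal and 70.99, 115 and 231 CPM in the limbic lobe, so the highest occipital animal reached into the limbic range (occipital log2FC = -1.07 ± 0.09, FDR = 1.35e-11, limbic log2FC = 0.46, edgeR). *NPY* was at 7.34, 10.7 and 13.5 CPM in the occipital lobe and 8.51, 19.7 and 37.1 CPM in the limbic lobe, again with overlap (occipital log2FC = -0.70 ± 0.08, FDR = 2.03e-08, edgeR). For both genes the temporal and frontal lobes were higher than the mean of the others as well, with log2FC from 0.22 to 0.34, but without the block these 4 calls were lost. *VIP* was the peptide with the smallest called occipital difference (18.7, 25.3 and 42.4 CPM against 26.2, 38.3 and 56.6 CPM in the parietal lobe; log2FC = -0.53 ± 0.07, FDR = 1.06e-07, edgeR), and the occipital lobe was its lowest lobe in 8 of 8 animals although the ranges overlapped. *CCK* was highest in the limbic lobe (212 ± 56.7 CPM, log2FC = 0.38) and lowest in the temporal lobe (142 ± 28.9 CPM, -0.34). Its occipital level of 154 ± 25.4 CPM was not called (log2FC = -0.16 ± 0.07, FDR = 0.0875, edgeR) and was the lowest lobe in 3 of 8 animals, although it was called without Rhesus 7, without Rhesus 11 and with the sub-regions weighted equally (-0.25 to -0.18).

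*RELN* and *LAMP5* were also lowest in the occipital lobe. The lowest, median and highest occipital values of *RELN* were 49.2, 69.6 and 104 CPM, against 85.6, 129 and 184 CPM in the frontal lobe, with overlap between animals (occipital log2FC = -0.65 ± 0.07, FDR = 1.10e-09, frontal log2FC = 0.45, edgeR). For *LAMP5* they were 15.1, 21.9 and 26.6 CPM, against 34.2, 50.1 and 61.6 CPM in the temporal lobe, without overlap between these lobes (occipital log2FC = -0.92 ± 0.06, FDR = 6.42e-15, temporal log2FC = 0.61, edgeR). The frontal *LAMP5* level (34.7 ± 7.38 CPM) was not called. The occipital lobe was lowest in 7 of 8 animals for *RELN* and in 8 of 8 for *LAMP5*.

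To read the 9 genes per unit of GABA synthesis transcripts, the lobes were also fitted with the summed counts of *GAD1* and *GAD2*, the GABA-synthesising decarboxylases, in place of the library size. On this scale 19 of 45 comparisons were higher and 13 lower, beside 17.4% and 14.8% over all genes, and 21 of the 32 calls remained without the block. The occipital lobe kept 1 higher and 7 lower genes, beside 24.3% and 23.5% over all genes in that contrast. Occipital *PVALB* reached 17.8 ± 2.02 counts per 100 *GAD1* and *GAD2* counts, from 14.04 to 20.8 over animals. The frontal lobe held 3.52 ± 0.791, and the highest value outside the occipital lobe was 10.5, below all occipital animals (log2FC = 1.76 ± 0.07, FDR = 2.36e-20, edgeR). *SST* went the other way, with 7.10 ± 1.83 occipital and 19.2 ± 9.39 limbic counts per 100 (log2FC = -1.09 ± 0.10, FDR = 3.80e-11, edgeR, for the occipital contrast). This scaling shifted the median log2FC of all genes in the limbic lobe from -0.01 to 0.13, and the share of calls that were higher from 51.5% to 96.8% in the limbic, from 52.7% to 29.8% in the frontal and from 48.4% to 20.3% in the parietal lobe. In the occipital lobe the share stayed at 53% and 50.8%.

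**Figure D3:**
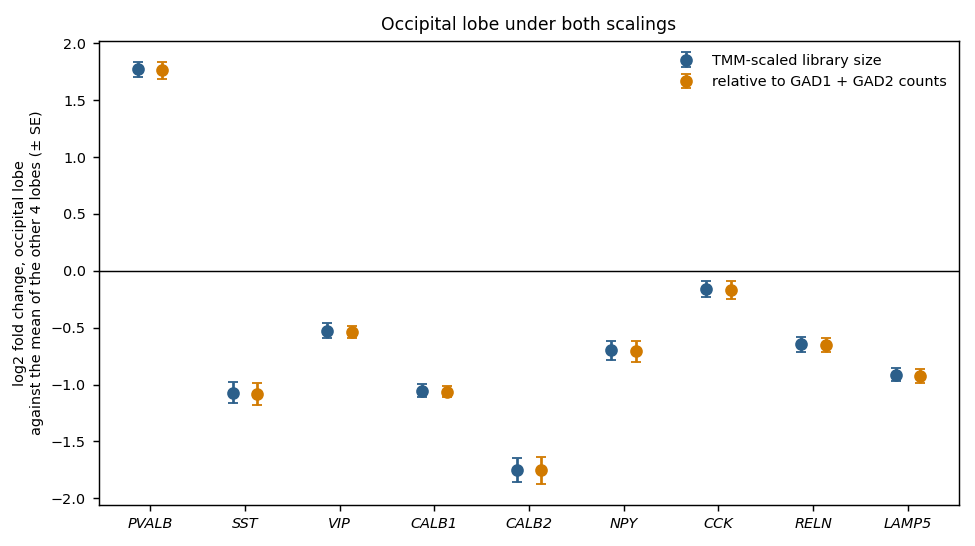
Log2FC (± SE) of the 9 genes in the occipital lobe against the mean of the other 4 lobes, by library size (TMM) and relative to *GAD1* and *GAD2*. *PVALB* lies at 1.77 and 1.76, *CALB2* at -1.75 and -1.75, and *CCK* nearest to 0.

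The other genes of the GABA system gave a less uniform picture in the occipital lobe. *GAD1* (log2FC = -0.05), *GAD2* (0.09) and *SLC32A1* (-0.01) were not called, while the membrane transporter *SLC6A11* (0.55) of the same GABA synthesis and transport list was higher. Over all genes, 28% were called higher and 24.8% lower in this contrast. Of the medial ganglionic eminence interneuron genes, 4 of 12 were higher and 5 lower, so that higher calls were about as frequent as over all genes. The potassium channel gene *KCNC1* (0.75), typical of fast-spiking cells, and the tachykinin gene *TAC1* (0.30) rose, and *NOS1* (-0.39), *LHX6* (-0.31) and *ERBB4* (-0.28) fell. All 11 measured caudal ganglionic eminence interneuron genes were lower, led by the cannabinoid receptor *CNR1* (-1.35), the serotonin receptor *HTR3A* (-1.26) and the transcription factor *NR2F2* (-1.01), with a median log2FC of -0.75 where the median of all genes was 0.02. Of the 9 measured receptors of the members' peptides, *SSTR5* (1.34), *SSTR3* (0.48) and *VIPR1* (0.27) were higher and 4 were lower, among them *SSTR1* (-2.19), *SSTR4* (-1.97) and *NPY5R* (-1.32). In the list reelin receptors and adaptor, *DAB1* (-0.70) and *VLDLR* (-0.27) were lower, of 3 genes.

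Markers of other cell types moved with the lobes too. Over all genes, 28% were called higher and 24.8% lower in the occipital lobe, and 6.96% and 7.43% in the parietal lobe. All 5 genes of the oligodendrocytes list were higher in the occipital and in the parietal lobe, with summed levels of 3316 to 5154 CPM and 3060.3 to 4460.2 CPM over animals against 1779.6 to 2991 CPM in the frontal lobe. In the occipital lobe, 2 of 2 microglia genes, 3 of 3 endothelial cells genes and 4 of 5 astrocytes genes were lower, and of the 6 glutamatergic neurons genes 2 were higher and 3 lower, with *SLC17A6* at 1.39 and *SLC17A7*, the vesicular glutamate transporter that defines the list, at -0.58. The summed glutamatergic neurons list ranged over 3696 to 4735 CPM in the occipital and 4356 to 5836 CPM in the frontal lobe. The defining markers *MBP*, *AQP4*, *CSF1R* and *SLC17A7* were above 0 in every animal. Their part in the occipital levels of the 9 genes was not tested.

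Over the 31 cortical sub-regions taken singly, each sub-region was compared with the mean of the other 30. The 9 genes had 65 higher and 61 lower calls of 279 (edgeR, FDR < 0.05), beside 10.1% and 8.5% over all genes, and 91 of these 126 calls remained without the block. All 9 genes passed the F test over the 31 sub-regions, as did 75% of the 15981 genes tested. *PVALB* ranked 28 in F (percentile 99.8), *CALB1* 289 and *LAMP5* 541, whereas *CCK* and *VIP* ranked 3836 and 4778. *PVALB* had 15 higher and 12 lower calls. It ran from 5.67 ± 2.46 CPM in the temporal polar gyrus (TPG) to 153 ± 10.1 CPM in pSOG, a 27.01-fold range of means, with the animals of TPG at 2.36 to 10.96 CPM and those of pSOG at 141 to 169.7 CPM. IOG (133 ± 30.3 CPM) and aSOG (102 ± 10.5 CPM) came next, then the cuneus (CuG, 90.1 CPM) and the postcentral gyri (85.97 and 78.7 CPM, inferior and superior), with the annectant gyrus between those (81.7 CPM). At the low end, TPG was preceded by vmPFC (9.88 CPM), the anterior cingular gyrus (ACG, 10.6 CPM) and the insula (INS, 12.5 CPM).

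**Figure D4:**
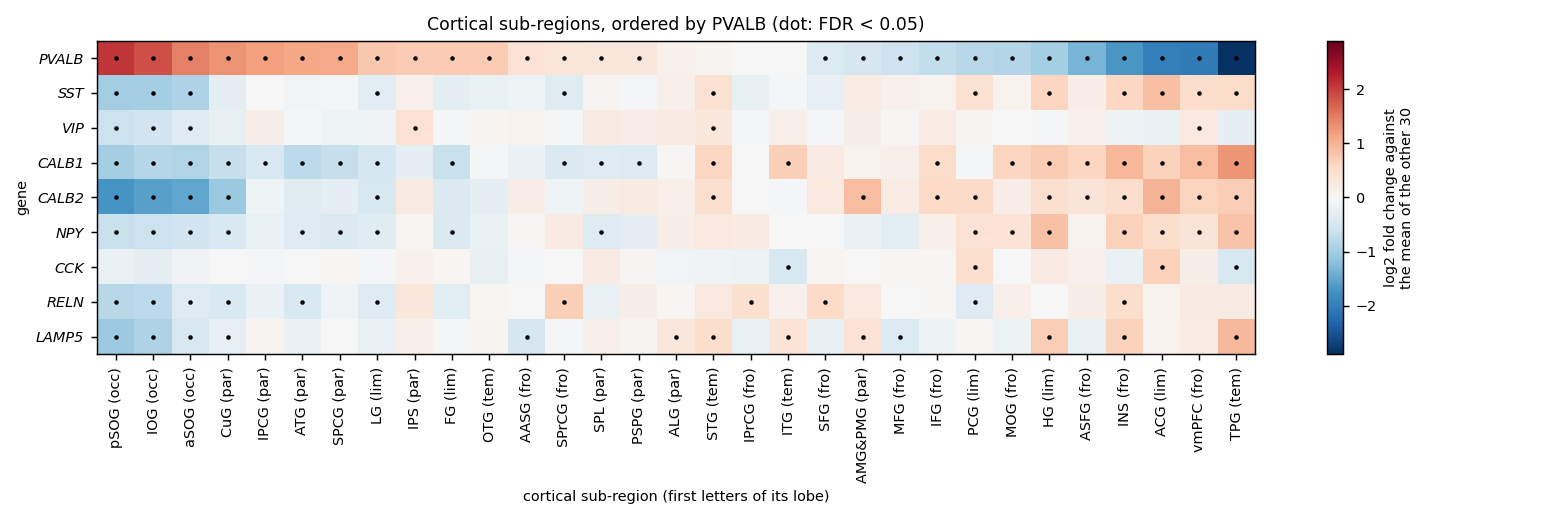
Log2FC of the 9 genes in each of 31 cortical sub-regions against the mean of the other 30, as colour, with sub-regions in the order of *PVALB* and dots at FDR < 0.05. The occipital gyri pSOG, IOG and aSOG form the end with the highest *PVALB*, at log2FC of 2.08, 1.87 and 1.47, and TPG the other, at -2.87.

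The 3 occipital gyri held ranks 1 to 3 of 31 for *PVALB* and ranks 29 to 31 for *SST*, *VIP*, *CALB1*, *CALB2*, *NPY* and *LAMP5*. The high ends differed between genes. *CALB1* (267 ± 65.6 CPM) and *LAMP5* (66.98 ± 15.2 CPM) were highest in TPG, where *PVALB* was lowest. *CALB2* (6.35 ± 2.86 CPM), *SST* (188 ± 88.6 CPM) and *CCK* (279.7 ± 118 CPM) peaked in ACG, with *CALB2* spread widely there (4.27 to 13.05 CPM over animals). *NPY* was highest in the hippocampal and parahippocampal gyrus (HG, 30.3 ± 12.3 CPM), *RELN* in the superior precentral gyrus (SPrCG, 179.8 ± 44.5 CPM) and *VIP* in the intraparietal sulcus (IPS, 51.3 ± 16.7 CPM). From lowest to highest mean, the range was 6.14-fold for *CALB2*, 4.35-fold for *CALB1*, 3.84-fold for *LAMP5*, 3.70-fold for *SST* and 2.04- to 2.82-fold for the other 4. *VIP* had 3 calls beyond the occipital gyri, namely IPS, vmPFC and the superior temporal gyrus, all higher (log2FC = 0.42, 0.28 and 0.30).

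How much of the spread in log2(CPM + 1) over the cortical libraries lay between sub-regions and how much between animals differed among the genes, as a description without a test. Sub-regions held 89.2% of the sum of squares of *PVALB* and animals 3.43%. *CALB1*, *CALB2* and *LAMP5* had 59.2%, 59.2% and 59.1% between sub-regions, *SST* 47.6%, *NPY* 39.4% and *RELN* 35.2%. For *VIP* and *CCK* animals weighed more than sub-regions, with 42.5% and 43.9% between animals against 23.8% and 24.7% between sub-regions. The mean log2 level of an animal over the cortex ranged over 0.78 (*CALB2*) to 1.35 (*CALB1*) between the lowest and the highest animal. Rhesus 4 had the highest cortical *PVALB*, *SST*, *CALB1* and *NPY* and the lowest *RELN*.

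Correlations of the mean log2(CPM + 1) over the 31 cortical sub-regions describe which genes shared a pattern, and they carry no p because all points come from the same 8 brains and each point pairs values of the same libraries. *PVALB* ran opposite to *CALB1* (Pearson's r = -0.91), *CALB2* (-0.85), *SST* (-0.83) and *NPY* (-0.83), less so to *LAMP5* (-0.63) and *RELN* (-0.58), and little to *VIP* (-0.28) and *CCK* (-0.23). *SST* ran with *CALB2* (0.91), *LAMP5* (0.79), *NPY* (0.79) and *CALB1* (0.79). *VIP* followed *GAD1* (0.65) and *CALB2* (0.64) most. *PVALB* was also close to *MBP* (0.90) and opposite to *SLC17A7* (-0.91), and its correlation with *GAD1* and *GAD2* was -0.10 and 0.06.

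**Figure D5:**
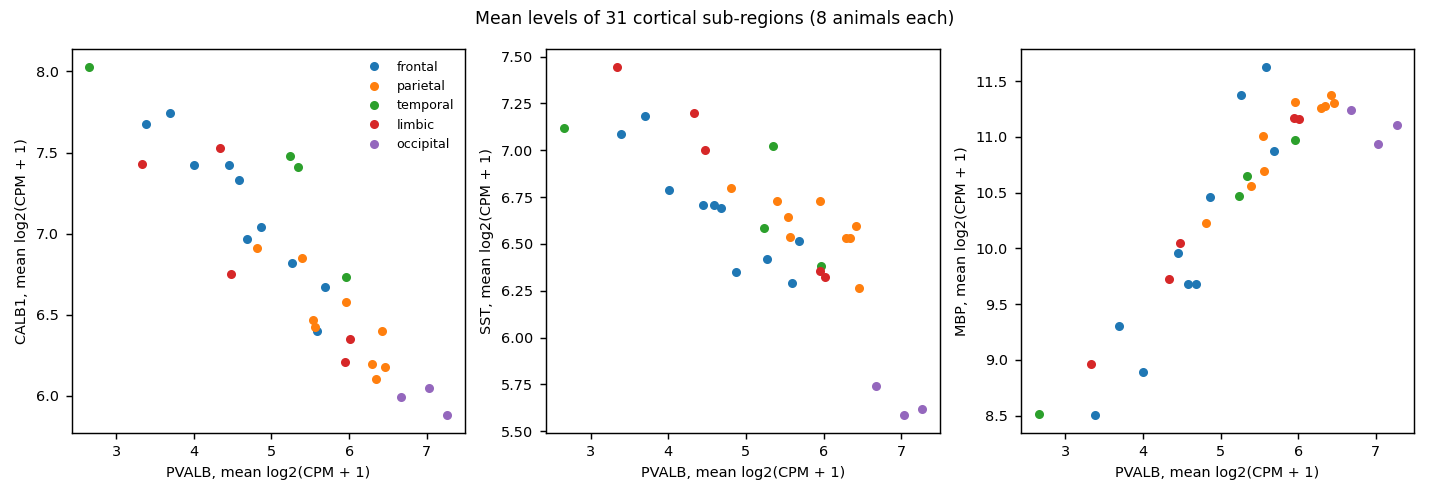
Mean log2(CPM + 1) of *CALB1*, *SST* and *MBP* against that of *PVALB* in 31 cortical sub-regions, coloured by lobe, each point the mean of 8 animals. *CALB1* (r = -0.91) and *SST* (-0.83) decline with *PVALB*, and *MBP* (0.90) climbs with it.

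Among the 11828 genes that carried a symbol and averaged 1 CPM or more in the cortex, the 3 whose pattern over the 31 sub-regions had the highest Pearson correlation were listed for each gene. For *PVALB* they were *PHYH*, *MITF* and *SCRT1* (0.98, 0.98 and 0.98), for *CALB1* *PLPPR4*, *LANCL2* and *CDKL2* (0.98, 0.97 and 0.97) and for *CALB2* *ELFN1*, *ASIC4* and *MTCH1* (0.97, 0.95 and 0.95). The peptides were followed most closely by *AGPAT4*, *PGRMC1* and *UCHL1* (0.94, 0.94 and 0.93) for *SST*, *LDB2*, *DRD1* and *GSKIP* (0.85, 0.83 and 0.82) for *VIP*, *ARHGAP6*, *BST1* and *SPINT2* (0.91, 0.89 and 0.89) for *NPY* and *DPYSL2*, *RAB26* and *TREX1* (0.81, 0.81 and 0.80) for *CCK*. *RELN* was matched by *NDNF*, *TEX2* and *RASGRF2* (0.92, 0.90 and 0.90) and *LAMP5* by *RGS8*, *CCDC6* and *C11H12orf75* (0.89, 0.87 and 0.86), where *NDNF* encodes a secreted factor that itself marks neurogliaform cells. Over all 51 sub-regions (12118 genes) other genes came first. *PVALB* then ran with *KCNC1* and *PANK1* (0.87 and 0.87), of which *KCNC1* encodes a potassium channel subunit, *VIP* with *CHRDL2*, *TBR1* and *MEF2C* (0.97, 0.97 and 0.97) and *CCK* with *LMO4*, *TBR1* and *MLIP* (0.95, 0.95 and 0.94). *TBR1*, a transcription factor of cortical excitatory neurons, was thus among the 3 for both *VIP* and *CCK*, with Spearman's rho lower at 0.72 and 0.63. *VIP* and *CCK* correlated at 0.93 with each other over the 51 sub-regions (rho = 0.79), of which 31 were cortical. Over those 31 alone, Pearson's r of *VIP* and *CCK* was 0.26. The remaining lists over 51 sub-regions were *FADS3*, *PNCK* and *CHRNE* (0.91, 0.90 and 0.88) for *SST*, *CRTC1*, *SLC25A42* and *WSCD2* (0.84, 0.83 and 0.79) for *CALB1*, *CBLN1*, *CD83* and *CALCB* (0.80, 0.80 and 0.79) for *CALB2*, *DYDC2*, *RGS14* and *PHACTR1* (0.91, 0.90 and 0.88) for *NPY*, *UNC5B*, *FMNL2* and *ARHGEF37* (0.90, 0.89 and 0.89) for *RELN* and *GPD1L*, *ANO3* and *POLR1E* (0.88, 0.84 and 0.83) for *LAMP5*.

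The striatum, cerebellum and hippocampus were each sampled in parts, and within each a gene was called at FDR < 0.05 and a fold above 2 of its highest part over every other. In STR, 1 of the 9 genes was called, *PVALB*, beside 3.21% of all genes. Its lowest, median and highest values were 3.88, 7.08 and 11.1 CPM in the putamen (PUT), 0.102, 0.907 and 1.44 CPM in the accumbens (ACb) and 0, 0.345 and 0.924 CPM in the caudate nucleus (CN), and the putamen overlapped with neither (log2FC over the next part = 3.12, FDR = 3.04e-08, edgeR). Counts of *PVALB* in ACb and CN were low, so the size of this fold is uncertain. *CCK* lay higher in ACb (7.70 ± 10.6 CPM) than in PUT by a log2FC of 1.58 and than in CN by 1.78 but missed the FDR limit (0.0619, edgeR), and passed it with DESeq2, without the filter on low counts, without Rhesus 3 and without Rhesus 4. *VIP* in PUT passed the fold limit without Rhesus 7. *CALB1* in STR was 617 ± 87.1 CPM in CN and 146 ± 178 CPM in PUT, where the animals ranged from 19.8 to 559 CPM. In CB, *LAMP5* was called, 1 of the 5 genes that could be tested, beside 0.225% of all genes. The cerebellar cortex (CBC) held 8.85, 9.71 and 23.1 CPM and the vermis (CBV) 2.34, 4.54 and 9.82 CPM as the lowest, median and highest animal, with slight overlap (log2FC = 1.41, FDR = 0.00139, edgeR), and this call was lost without the block. In HIP none of the 9 genes was called, beside 0.683% of all genes. *LAMP5* in the dentate gyrus (DG, 171 ± 94.1 CPM) was nearest, with a log2FC over the next part of 0.996, just under the fold limit, and it passed with DESeq2, with its size factors, without the block and in 5 of the 8 fits that left out 1 animal.

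Age stage and sex were compared in each of the 16 region groups with 4 animals against 4, at FDR < 0.1 and an absolute log2FC above 1. Of the 131 pairs of gene and region group that passed the filter on low counts, out of 144, none was called for age (edgeR; 17 at an unadjusted p below 0.05) beside 0.0166% of all genes. None was called for sex either (edgeR; 8 at an unadjusted p below 0.05), beside 0.102% of all genes. DESeq2 called 5 of these pairs for age and 0 for sex, and over all genes it called 808 for age and 1046 for sex, against 42 and 258 with edgeR. Without Rhesus 7, edgeR called 935 for age and 2405 for sex over all genes, with 0 and 2 of the pairs of the 9 genes among them. The age differences with the smallest p included *CALB1* in THA (mid-aged minus young log2FC = 0.97, FDR = 0.316) and in the cortex (-0.65, FDR = 0.606), and *SST* and *VIP* in MO (-2.57 and -2.78, FDR = 0.435 for both, edgeR). *SST* in MO ran over a wide range of animals (4.24 to 233 CPM). Rhesus 6, a mid-aged animal, was the lowest in MO for *SST*, *VIP*, *NPY* and *CCK*. The medulla libraries also differed in the summed glutamatergic neurons list, at 759 CPM in Rhesus 4 and 74.1 to 866 CPM in the other animals. The part of such differences between libraries in the age comparison was not tested. For sex, *RELN* in THA came first (female minus male log2FC = -0.57, FDR = 0.569, edgeR).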

How the data were processed

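The authors sequenced total RNA depleted of ribosomal RNA from brain sub-regions of 8 rhesus macaques, of which 51 were used here, and deposited raw counts per gene, made with FastQC 0.11.4, Trim Galore 0.4.4, HISAT2 2.0.5 and HTSeq 0.6.1 on Mmul 8.0.1 with Ensembl 91 genes. How strand and overlapping genes were handled in counting is not given in the sources used here. Of the 30807 genes, 17572 had a symbol. Accessibility libraries, an assembled annotation and the midbrain libraries, made from what was left of the midbrain once VTA and SN had been taken, were not used.

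Counts were fitted with edgeR 4.0.16 in R 4.3.3 (filterByExpr, TMM, quasi-likelihood test, Benjamini-Hochberg over all genes and contrasts of a family, or within a region group for age and sex) with the animal as a block, since the labels give the same animal to each replicate number. Deviations from the lobe means correlated at over 0.1 in 78 of 80 pairs of lobes of 1 animal (median r = 0.78, against -0.13 over 700 pairs of 2 animals). Age was fitted with sex as a term and sex with age stage. CPM used the library totals of the deposited counts scaled by the TMM factors, with a pseudocount of 1 on the log2 scale, and 8 animals set the precision. Alternatives were DESeq2 1.42.0, its size factors, no filter, no block, other offsets and leaving out each animal. The fits were tested on simulated data.

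The 9 genes and the lists of related and cell type genes were chosen with earlier results of these data known. Of the 94 list genes, 79 matched a symbol. Beside the 9 genes, the text names list genes that passed the same call with the largest change, at most 3 a direction, the genes that define a list or the scaling, and the 3 genes most correlated with each. Some genes that this rule would name are not reported here.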

Additional observations from a re-analysis of the deposited data

Results flagged for a closer look

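In 32 of the 139 sets of 8 animals tested (9 genes in 16 region groups, without the sets in which all animals had 3 counts or fewer), 1 animal lay apart from the other 7 by Dixon's criterion, which sets the gap to the nearest animal against the range. For normally distributed values chance gives about 1 in 20 such sets, but the criterion was applied to CPM, whose distribution was not tested, and 30 of the 32 animals lay above the others. Each value below is followed by the range of the other 7 animals, and no cause was tested.

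Rhesus 6 stood above the others in HTHA for 4 genes: *PVALB* at 33.3 CPM (0.0955 to 13.6 in the others), *VIP* at 30.6 CPM (0.479 to 5.07 in the others), *CCK* at 113 CPM (7.88 to 19.8 in the others) and *LAMP5* at 32.9 CPM (6.23 to 15.2 in the others). This is the library with the high glutamatergic neurons sum. The same animal was high for *CCK* in THA at 21.8 CPM (2.09 to 8.19 in the others), *RELN* in MO at 782 CPM (359 to 558 in the others), and *LAMP5* in CB at 17.4 CPM (6.29 to 10.9 in the others) and in PIT at 43.9 CPM (8.77 to 19.5 in the others).

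Rhesus 3 was high in GP, where its library also held more of the striatal medium spiny neurons list, for *NPY* at 32.5 CPM (0.321 to 7.25 in the others) and *LAMP5* at 48.7 CPM (2.47 to 7.84 in the others). It was also high for *SST* in OB at 7.78 CPM (0.776 to 3.78 in the others), *NPY* in OB at 9.20 CPM (3.32 to 5.71 in the others), *NPY* in HIP at 53.2 CPM (21.3 to 34.1 in the others), *VIP* in PA at 20.3 CPM (8.89 to 13.04 in the others), *CCK* in PA at 291 CPM (156 to 203 in the others), *CCK* in AMY at 157 CPM (62.2 to 104 in the others) and *CALB2* in MO at 121 CPM (3.75 to 31.7 in the others).

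Rhesus 4 was high for *PVALB* in CB at 432 CPM (210.2 to 289.8 in the others), *CALB2* in HIP at 6.90 CPM (1.72 to 3.46 in the others) and in PON at 100.3 CPM (28.5 to 50.5 in the others), *CCK* in MO at 37.03 CPM (0.163 to 4.93 in the others) and in PON at 8.07 CPM (1.75 to 4.17 in the others), and *NPY* in THA at 1.11 CPM (0.232 to 0.546 in the others). It was low for *RELN* in GP at 244 CPM (615 to 841 in the others). Rhesus 10 was high for *PVALB* in THA at 141 CPM (25.8 to 76.6 in the others), *VIP* in MO at 2.97 CPM (0.0815 to 1.32 in the others) and *CALB2* in AMY at 11.3 CPM (3.24 to 5.54 in the others). Rhesus 2 was low for *PVALB* in AMY at 3.01 CPM (4.00 to 4.80 in the others) and high for *RELN* in SN at 401 CPM (169 to 265 in the others). Rhesus 8 was high for *SST* in PIT at 0.950 CPM (0 to 0.397 in the others) and *LAMP5* in THA at 15.3 CPM (3.11 to 5.90 in the others), and Rhesus 11 for *VIP* in PIT at 0.960 CPM (0 to 0.397 in the others).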

How the results depend on the processing

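No called difference of the 9 genes reversed under any alternative run. Replicate numbers are animals, so all region fits were paired by a block. Without the block, the calls over the lobes went from 35 to 21, relative to *GAD1* and *GAD2* from 32 to 21 and over the cortical sub-regions from 126 to 91, while against the cortex 101 of 102 calls were kept and that of *PVALB* in VTA was gained, and a call of *LAMP5* in HIP was gained (1) and that in CB lost (0). Leaving out each animal in turn gave 99 to 104 calls against the cortex, 32 to 38 over the lobes and 32 to 34 relative to *GAD1* and *GAD2*. The HIP count of 0 became 1 with DESeq2's size factors and with DESeq2, and 0 to 1 when an animal was left out. The STR count of 1 became 2 without the filter on low counts and with DESeq2, and 1 to 2 when an animal was left out. For age, 5 calls appeared without the filter (*SST*, *CCK* and *NPY* in MO, *SST* and *CALB2* in SN) and 5 with DESeq2 (*SST*, *CCK*, *NPY* and *VIP* in MO, *CALB2* in SN), all lower in the mid-aged animals, while the calls over all genes went from 42 to 1404 and 808. For sex, 6 calls appeared without the filter (*RELN* in PIT, *CCK* and *LAMP5* in SN, *CCK* and *PVALB* in THA, *CCK* in VTA), all higher in females, beside 1432 over all genes, and 0 to 2 when an animal was left out (*SST* and *RELN* in PIT without Rhesus 7, when the sex calls over all genes went from 258 to 2405). The cause was not tested. Leaving out animals was not run for the cortical sub-regions. Of the 27 genes listed as most similar, 11 were also listed by Spearman correlation over 31 sub-regions and 8 over 51.

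Bulk libraries do not show which cells carry a transcript, so a level here is that of a piece of tissue. Library depth limits *VIP*, *PVALB* and *CALB2* in the pituitary and *VIP* in CB, PON and THA, where single reads decide a value. The age and sex comparisons have 4 animals a side.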
